A study of Drosophila melanogaster with 12 samples.

Results

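The 220 sites described here are the strongest PSC binding sites of control cells that still carried a called PSC peak in mitotic cells. All 4830 peaks of PSC control replicate 1 were ranked by their score, with ties taken in list order. The top 10%, 483 peaks, were called strongest. Those that overlapped a peak of PSC mitotic replicate 1 by at least 1 bp were called kept (45.5% of the 483, where 11.6% of all 4830 peaks had such an overlap), and the other 263 were called lost. The sites were thus chosen by their score in control replicate 1 and by their overlap with mitotic replicate 1. Their values in those lists are a description, and the comparisons rest on the other 4 lists and on position.

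ChIP-SEQ of PSC and of PH was done in Drosophila S2 cells, a line derived from embryos. PSC was precipitated from S2 cells, with 2 replicates of mitotic cells and 2 of control cells. PH was pulled down from S2-PH, a stable S2 line that makes PH with a biotin tag, together with the ligase that attaches the biotin, from metallothionein promoters. PH has 1 mitotic and 1 control sample. Mitotic cells came from cultures arrested for 15 h by colchicine (350 ng/ml, or 880 nM) and were sorted with an antibody to phosphorylated H3S10. Control cells received no colchicine and were sorted with an antibody to histone H3. Drug, sorting antibody and cell cycle state changed together and cannot be told apart. The lists hold no measure of cell identity.

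Polycomb group (PcG) proteins keep developmental genes, such as the Hox genes, silent through many cell divisions. PSC and PH are both core subunits of Polycomb Repressive Complex 1, which compacts chromatin. In flies the complex is brought to the genome at Polycomb response elements by sequence-specific factors such as PHO. Mitosis is a challenge for this memory, since many regulators leave the condensed chromosomes. A site where a peak can still be called in mitotic cells is thus of interest. No annotation of the dm3 build was used here, so sites are given by position and not by gene.

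The 6 lists differed greatly in length. PSC control replicate 1 held 4830 peaks, control replicate 2 held 3276 and PH control held 4629, while PSC mitotic replicate 1 held 578, mitotic replicate 2 held 60 and PH mitotic held 149. Read depth is not in the lists, so a site absent from a list was below that list's threshold and was not shown to be unbound. The score is the authors' value per peak and was read as -10 times the log10 of the peak caller's p-value. It reached a ceiling in the 2 large control lists. In PSC control replicate 1, 156 peaks stood at exactly 3100 and 28 above it. The order among these 184 peaks therefore says little about strength, although all of them were among the strongest 483. At the edge of the ranking, the last site taken was chrX:17425251-17427114 at 2041, a kept site. The first peak left out was chr3R:2948246-2951045 at 2039, which also overlapped a mitotic replicate 1 peak.

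Kept sites were found again in the other mitotic lists far more often than lost sites. PSC mitotic replicate 2 had a peak on 25 of the 220 kept sites (11.4%, exact binomial 95% interval 7.49% to 16.3%) and on 1 of the 263 lost sites (0.380%, 0.010% to 2.10%). Of all 4830 control peaks, 1.10% were overlapped in that list. PH mitotic had a peak on 75 kept sites (34.1%, 27.9% to 40.8%) and on 3 lost sites (1.14%, 0.236% to 3.30%), against 3.02% of all control peaks. The intervals of kept and lost sites did not overlap in either list. They describe counting within a list, treat sites as independent and carry no error between cultures. No test over samples was possible. The PH mitotic list was also made with a looser cutoff than the PSC lists. By score, its lowest peak stood at 50.19, that of mitotic replicate 1 at 50 and that of mitotic replicate 2 at 72.85. Without control replicate 1, that is with the strongest 10% taken from control replicate 2, mitotic replicate 2 supported 19.9% of kept and 0.602% of lost sites. Without mitotic replicate 1, when mitotic replicate 2 decided which sites were kept, 26 of 483 were kept (5.38%), and PH mitotic supported 84.6% of these and 12.3% of the others. At a score of 100 or more in each list, PH mitotic supported 22.0% of kept sites and none of the lost ones.

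**Figure D1:**
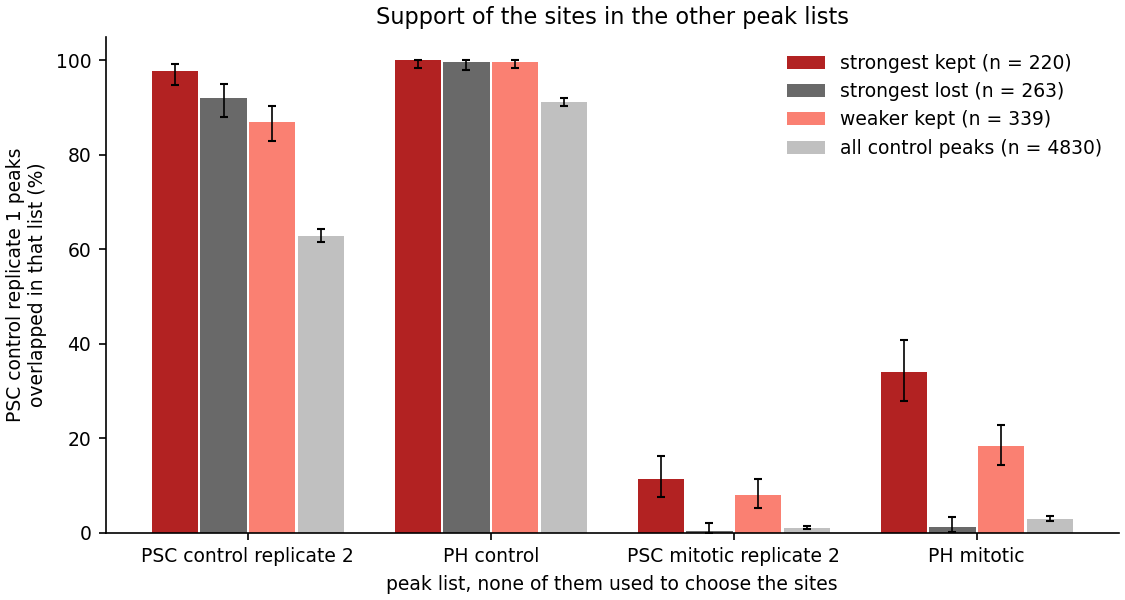
Percent of PSC control replicate 1 peaks overlapped by at least 1 bp in each of the 4 lists not used to choose the sites, for strongest kept, strongest lost, weaker kept and all control peaks. Bars show the share and lines its exact binomial 95% interval. In both mitotic lists the strongest kept sites stand above the lost ones, 11.4% against 0.380% and 34.1% against 1.14%.

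PH mitotic support also differed between kept sites of high and of lower control score. Control peaks below the top 10% that overlapped mitotic replicate 1 numbered 339 and are called weaker kept sites. PH mitotic supported 62 of them (18.3%, 14.3% to 22.8%), below the 34.1% of the strongest kept sites with no overlap of the intervals. Mitotic replicate 2 supported 27 of them (7.96%, 5.31% to 11.4%), and here the intervals overlapped. All of these intervals cover counting within a list only and treat sites as independent, which was not tested. The strongest and the weaker kept sites also differed in mitotic replicate 1 score, with medians of 163 and 96.8. The part of that score in the support was not tested. Seen from the mitotic lists, 25 of the 60 peaks of mitotic replicate 2 (41.7%) and 77 of the 149 PH mitotic peaks (51.7%) lay on a strongest kept site. In mitotic replicate 1, which was used to choose the sites, 226 of 578 peaks did (39.1%), close to the share in mitotic replicate 2. Of the 14 highest PH mitotic peaks, 11 lay on these sites and the other 3 on weaker kept sites. Of the 6 highest mitotic replicate 2 peaks, 3 lay on strongest kept sites and the other 3 on no control replicate 1 peak.

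Support in the 2 lists overlapped in part. Either list supported 78 kept sites (35.5%) and both supported 22 (10%). Of all 4830 control peaks, 3.29% had a peak in either list, 0.828% in both and 96.7% in neither. Of the 25 kept sites with a mitotic replicate 2 peak, 22 also had a PH mitotic peak, and 3 did not. Of the 75 with a PH mitotic peak, 53 had no replicate 2 peak. The remaining 142 kept sites (64.5%, 57.8% to 70.9%) had neither, so most of the kept sites rested on a single mitotic list. None of the 263 lost sites had both, which by the rule of 3 counts of the total allows a share of up to 1.14% (1.39% by the exact interval).

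Among kept sites, the score of the mitotic replicate 1 peak tracked support in the other mitotic lists. That score ran from 50.3 to 3045, with a median of 163 (quartiles 89.4 and 307). The 220 sites were split by it into 4 groups of 55. PH mitotic had a peak on 41 of the 55 highest (74.5%, 61.0% to 85.3%), then on 21 (38.2%), 10 (18.2%) and 3 (5.45%). Mitotic replicate 2 had one on 19 (34.5%), 5 (9.09%), 1 (1.82%) and 0 of them. A count of 0 in 55 allows a share of up to 5.45% by the rule of 3 counts (6.49% by the exact interval). Both lists therefore went down together with the mitotic replicate 1 score. Over the 75 kept sites with a PH mitotic peak, the 2 scores had a Spearman rho of 0.68, given as a description of sites that share a library within each list. The same measure over the 25 sites with a mitotic replicate 2 peak was 0.35.

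**Figure D2:**
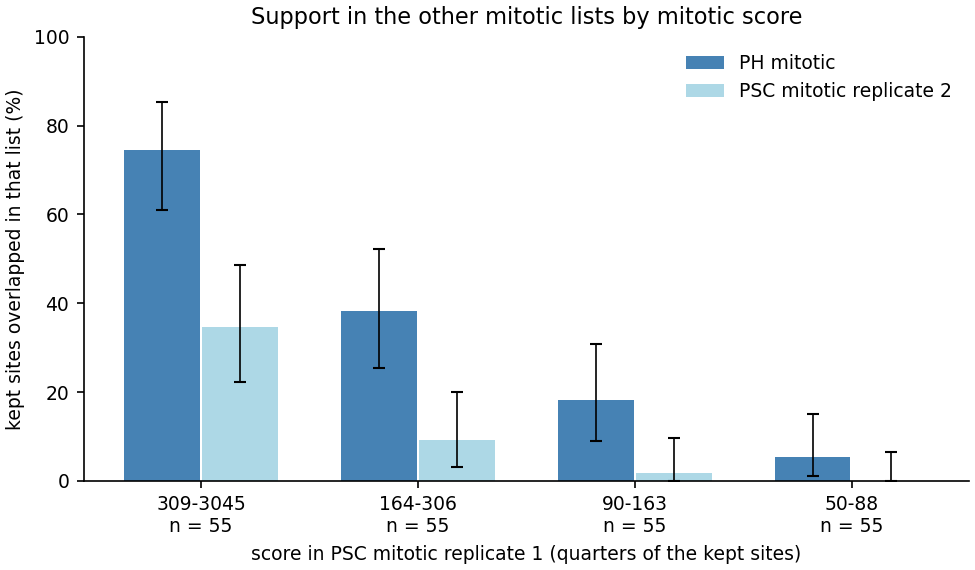
Percent of kept sites with a PH mitotic peak or a PSC mitotic replicate 2 peak, in 4 groups of 55 ordered by the score of their mitotic replicate 1 peak. Lines show exact binomial 95% intervals. PH mitotic support went from 74.5% in the highest group to 5.45% in the lowest.

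The highest mitotic site stood well apart. At chr3R:27043626-27048575 the scores were 3100 in PSC control replicate 1, 382 in control replicate 2 and 3100 in PH control. In the mitotic lists they were 3045 in replicate 1, 138 in replicate 2 and 347 for PH. The mitotic replicate 1 peak there was the highest of its list and the PH mitotic peak ranked 3 of 149, yet the mitotic replicate 2 peak ranked only 23 of 60. The next member by mitotic replicate 1 score, chr2L:5977357-5983824, had 1323 there and 300.4 in PH mitotic, but no peak in mitotic replicate 2. A high score in one mitotic list thus did not fix the rank in another.

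The site with the highest PH mitotic score was a short, isolated peak. At chr2R:16771298-16772889, 1592 bp long and with no other control peak within 10 kb, the scores were 2118 in control replicate 1, 439 in control replicate 2 and 1846 in PH control. The mitotic scores were 845 in replicate 1, 315 in replicate 2 and 406 for PH. The PH mitotic peak was the highest of its list, and the replicate 2 peak ranked 3 of 60. Its control replicate 1 score placed it only at rank 444 of the 483, while its control replicate 2 score was in the highest of 4 groups of strongest sites (318 to 1860). So a site near the lower end of the strongest peaks by control replicate 1, but not by control replicate 2, was among the best supported in mitosis.

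Other members with a peak in all 3 mitotic lists ranged widely in control score. chr2R:17388605-17390695 scored 2401 in control replicate 1 and 1096, 161 and 323 in mitotic replicate 1, mitotic replicate 2 and PH mitotic. chr3L:16579582-16582366 scored 2848 in control replicate 1 and 1035, 80.9 and 334 in the same mitotic lists. chr2L:20119879-20121842 scored 2951 in control replicate 1 and 933, 264 and 202 in them. These 3 sites shared a high mitotic replicate 1 score, but the last had a higher replicate 2 score than PH score. chr3L:2851185-2852842, at 2531 in control replicate 1, scored 888, 224 and 309.5, and its 3 mitotic centres lay within 18.5 bp of the control centre. Over all 22 such members, the median scores were 616 in mitotic replicate 1 (257 to 3045), 143 in mitotic replicate 2 (73.5 to 315) and 162 in PH mitotic (66.2 to 406). In control replicate 2 their median was 396 (88.2 to 1860). Exactly 11 of the 22 were at or above the score ceiling in control replicate 1.

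**Figure D3:**
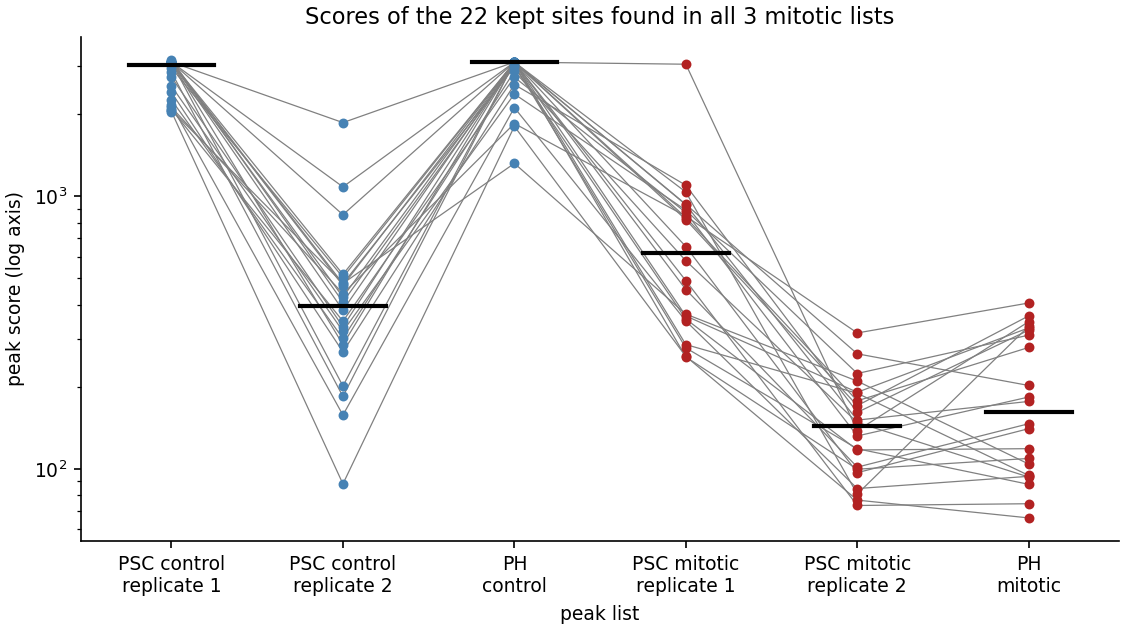
Peak score on a log axis in each of the 6 lists for the 22 kept sites with a peak in all 3 mitotic lists, 1 line per site, with the median as a black bar. Control replicate 1 scores lie between 2041 and 3164 and mitotic replicate 1 scores between 257 and 3045. Scores of different lists depend on each list's depth, so their heights are not a measure of loss.

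Mitotic scores varied widely among members at the top of the control ranking, where the order carries little information. The 2 members at the top of the control ranking, chr3R:6175047-6178426 at 3233 and chr2L:12519567-12522545 at 3225, had mitotic replicate 1 scores of only 104 and 90.0 and no peak in the other mitotic lists. The next member, chr3R:25871226-25873195 at 3213, had 698 in mitotic replicate 1 and 172 in PH mitotic. The lost site chr3R:11923020-11926468 had the same control score as chr2L:12519567-12522545, 3225, with 309 in control replicate 2 and 3100 in PH control. Within the kept sites, the control and mitotic replicate 1 scores had a Spearman rho of 0.12 over 220 sites, again only a description. Of the 220, 104 were at or over the ceiling, which limits what this value can show.

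Sites kept and lost were nearly all bound in the other control lists, but differed in the score there. Control replicate 2 had a peak on 215 of the 220 kept sites (97.7%, 94.8% to 99.3%) and on 242 of the 263 lost sites (92.0%, 88.1% to 94.99%), against 62.9% of all control peaks. PH control had one on all 220 kept sites and on 262 lost sites, against 91.2% of all. Where control replicate 2 had a peak, its score had a median of 270 at kept sites (quartiles 182 and 397) and of 185 at lost sites (128 and 260). The median over all control peaks was 110. The ranges overlapped widely, from 52.1 to 1860 at kept sites and from 50.3 to 591 at lost sites, but the kept median lay above the upper quartile of the lost sites.

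The share of sites kept rose with the control replicate 2 score, which the choice of sites did not use. The 457 strongest sites with such a peak were divided into 4 groups by that score. Of the lowest group, 27 of 115 were kept (23.5%, 16.1% to 32.3%), and of the next 2 groups 51 of 114 (44.7%) and 56 of 114 (49.1%). In the highest group, with scores from 318 to 1860, 81 of 114 were kept (71.1%, 61.8% to 79.2%). Of the 26 strongest sites with no control replicate 2 peak, 5 were kept (19.2%, 6.56% to 39.4%). The intervals of the lowest and the highest group did not overlap. They cover counting within the lists only and treat sites as independent.

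**Figure D4:**
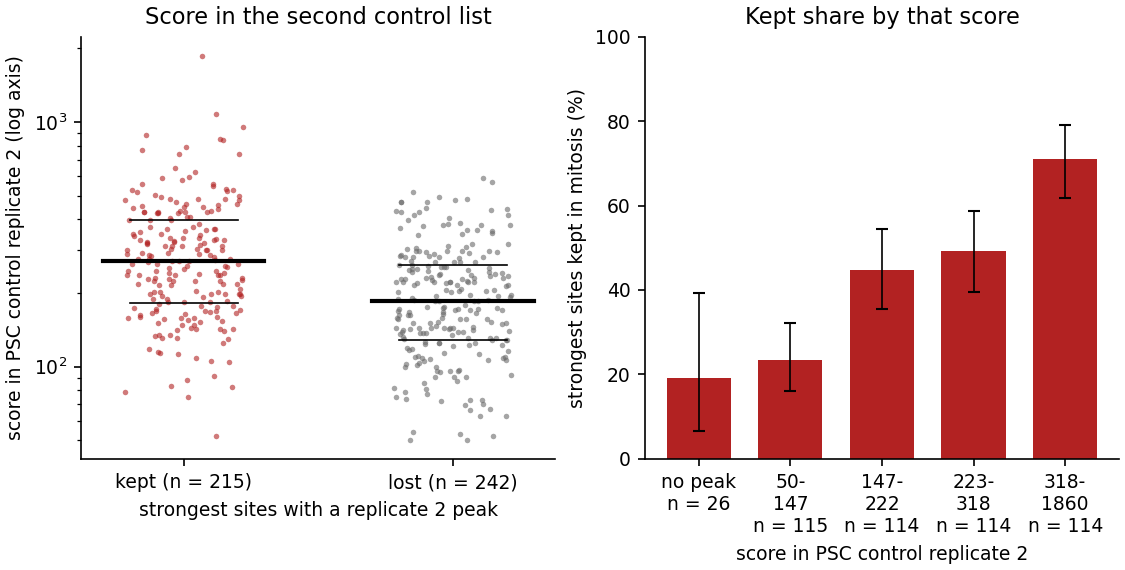
Left, score in PSC control replicate 2 (log axis) of each strongest site that had a peak there, with the median as a thick line and the quartiles as thin lines. Right, percent of strongest sites kept in mitosis without a replicate 2 peak and in 4 groups of replicate 2 score, with exact binomial 95% intervals. The kept share goes from 23.5% in the lowest score group to 71.1% in the highest.

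The same shift was present among sites that control replicate 1 could not order. Of the 184 peaks at or over the ceiling, 104 were kept (56.5%, 49.0% to 63.8%), and their median control replicate 2 score was 310.0 against 207 for the 80 lost. For scores of 2386 to 3082 in control replicate 1, 71 of 149 were kept, with medians of 238 and 202. For the lowest scores, 2041 to 2382, 45 of 150 were kept (30%), with medians of 224 and 164. Kept sites were higher in control replicate 2 in each of the 3 score ranges.

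PH control scores could not be compared to the same extent, since 231 peaks of that list were at or over the same ceiling. Their median was 3100 at kept sites and 2727 at lost sites. Of the strongest 462 peaks of PH control, 191 lay on the 220 kept sites and 180 on the 263 lost sites. In control replicate 2, which has no ceiling, 115 of its top 327 peaks lay on kept sites and 62 on lost sites.

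Kept sites were not wider than lost sites. In PH control the overlapping peak had a median length of 3028 bp at kept sites (quartiles 2298 and 4282) and of 3390 bp at lost sites (2499 and 4660). In control replicate 2 the medians were 1723 and 1797 bp, less than the quartile spread of 1377 to 2376 bp at kept sites. Both kinds were wider than control peaks at large, whose median was 1832 bp in PH control. The PH difference depended on which control replicate was ranked. With the strongest 10% taken from control replicate 2, the order turned, to 2566 bp at kept and 2183 bp at lost sites. The kept median in PH control was the lower in 11 of 12 settings, the reported one included, and the higher only in this one. It was also lower in each of 3 ranges of control replicate 1 score. From high to low score the medians were 3674 against 4366.5 bp, 2827 against 3176.5 bp and 2072 against 2770.5 bp. The quartile ranges of kept and lost sites overlapped widely. The 5 members with no control replicate 2 peak included 3 on the X chromosome, at chrX:12648868-12656024, chrX:8300812-8306256 and chrX:13231036-13232876, and 1 on the scaffold 3LHet. Kept and lost together, 5 of the 24 strongest X sites had no such peak, against 26 of all 483.

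Mitotic peaks were shorter than the control peaks that held them. Of the 220 kept sites, 214 held a single mitotic replicate 1 peak, and in all 214 it was the shorter and had its centre inside the control peak. It lay wholly inside in 210. It covered a median of 51.4% of the control peak (quartiles 35.3% and 69.4%). PH mitotic peaks covered 45.3% over 73 sites and mitotic replicate 2 peaks 51.4% over 25 sites. A control replicate 2 peak, from untreated cells, covered 71.2% and was also shorter than its replicate 1 peak in 174 of 179 sites with 1 such peak. PH control peaks covered 99.5%. Peak length also moved with score within the kept sites (Spearman rho 0.51 for mitotic replicate 1 over 220 sites), and its part in these shares was not tested.

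The mitotic peak was often off the middle of its control replicate 1 peak. The median distance between the 2 centres was 309.75 bp (quartiles 100.25 and 781 bp) for mitotic replicate 1, over 214 sites. For mitotic replicate 2 it was 202.5 bp over 25 sites, and for PH mitotic 293 bp over 73. Without control replicate 1, with sites ranked and measured in control replicate 2, the mitotic replicate 1 distance was 119.5 bp. Without mitotic replicate 1, with sites kept by mitotic replicate 2, the mitotic replicate 2 distance was 200 bp. For PH control it was 61.0 bp over 213 sites with 1 peak, and for control replicate 2 it was 142 bp over 179. At the weaker kept sites the mitotic replicate 1 offset was only 92.0 bp, and the mitotic peak covered 68.5%. Those sites had shorter control peaks, with a median of 1783 bp against 3103.5 bp. As a percent of the distance from the centre of the control peak to its edge, the offset was 22.2% at the strongest kept sites and 10.4% at the weaker ones.

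The mitotic lists nevertheless placed their peaks close together. Centres of mitotic replicates 1 and 2 lay a median of 63.0 bp apart over 25 sites, and 23 of these pairs were within 500 bp. Centres of mitotic replicate 1 and PH mitotic lay 99.0 bp apart over 75 sites, with 64 within 500 bp. The distance from the mitotic replicate 1 centre to that of the control replicate 2 peak was 126 bp over 215 sites, but to that of the PH control peak 282.5 bp over 220. By median, the mitotic replicate 1 peaks thus sat nearer to the centre of the narrower control replicate 2 peak than to that of the wide PH control peak. Where a list had several peaks on a site, the highest-scoring one was measured. Of the 25 sites with a mitotic replicate 2 peak, 19 were among the 55 highest by mitotic replicate 1 score. So were 41 of the 75 with a PH mitotic peak. The control distances cover nearly all kept sites, so the sets of sites differ. The parts of peak width and of mitotic score in these distances were not tested.

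**Figure D5:**
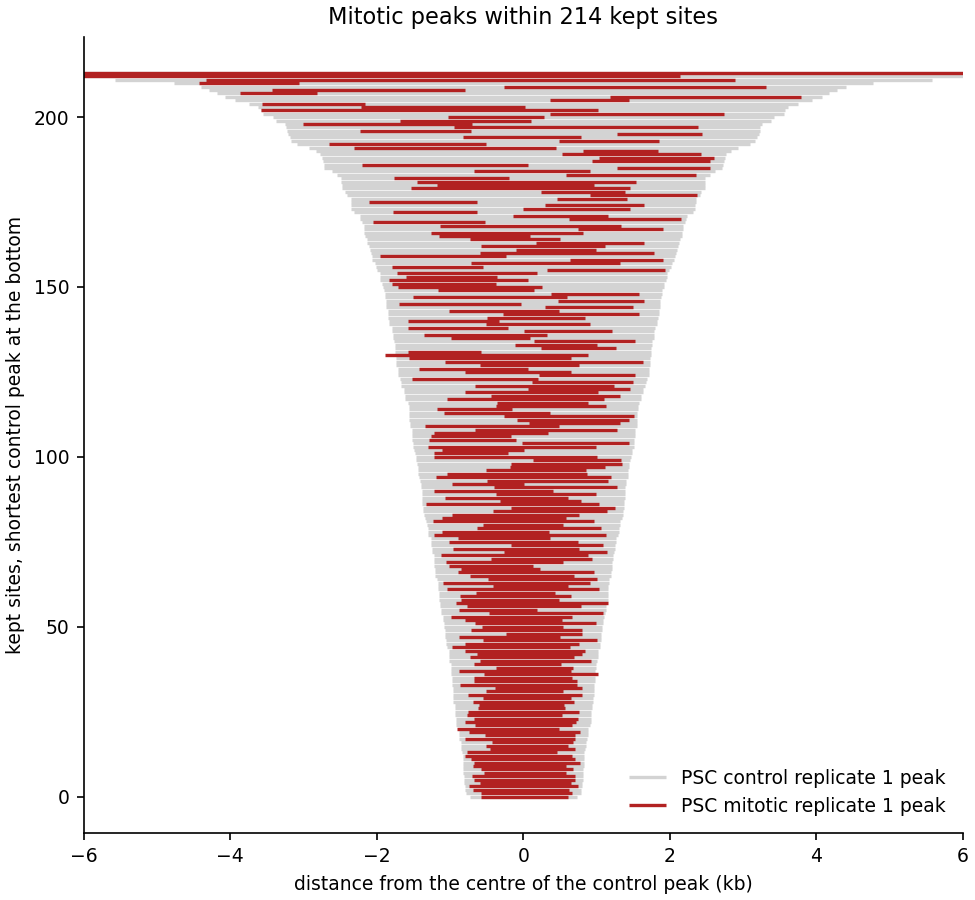
Extent of the PSC control replicate 1 peak (grey) and of the PSC mitotic replicate 1 peak (red) at the 214 kept sites with 1 mitotic peak, aligned on the control centre and stacked by control length. The axis runs 6 kb to each side in kb, and 2 control peaks extend past it. The red bars lie inside the grey ones at almost all sites (wholly inside at 210) and spread to both sides of the centre in the long peaks.

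Where control replicate 2 split a site into several peaks, the mitotic peak mostly overlapped the highest of them. Control replicate 2 had 2 or more peaks on 36 kept sites (16.4%) and on 51 lost sites (19.4%), against 2.65% of all control peaks. Of the 36, 31 held 1 mitotic replicate 1 peak. In 27 of the 31 it overlapped the highest control replicate 2 peak of the site. In the other 4 it overlapped the site's further peaks but not the highest. Whether the 27 also overlapped a further peak was not counted, and a preference for the highest peak was not tested.

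A few members held 2 mitotic replicate 1 peaks. At chr2L:12001779-12008341, a control peak of 6563 bp, one mitotic peak of score 228 spanned 12002938 to 12004598 and another of score 102 spanned 12005634 to 12007395. The control scores there were 3100, 741 in control replicate 2 and 3100 in PH control, and PH mitotic had 183. At chr3L:10729260-10734488 the mitotic peaks scored 62.2 and 173, and the other mitotic lists had none. Only 6 of the 220 sites (2.73%) were of this kind, against 0 of the 339 weaker kept sites and 0.124% of all control peaks. One of the 6, chr3R:25622386-25633956, was touched by mitotic peaks of 39716 bp and 10909 bp with scores of 57.2 and 56.9. Both were wide and low, and the site was kept only through them.

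The longest kept site was a region of 36553 bp at chrX:12612115-12648667. Its scores were 3100 in control replicate 1, 1860 in control replicate 2, the highest of that list, and 3100 in PH control. In mitotic cells they were 364, 191 and 329 in replicate 1, replicate 2 and PH, with a mitotic replicate 1 peak of 29364 bp. The member chrX:12648868-12656024 followed after a gap of 200 bp, with no control replicate 2 peak and a mitotic replicate 1 score of 132. Very long control peaks were not always kept. The longest of the lost sites, chr3L:3392431-3462553, covered 70123 bp and had only 74.8 in control replicate 2 and 522 in PH control. Without the peaks longer than 10 kb, 215 of 470 sites were kept (45.7%), little changed from 45.5%.

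Spacing to the next control peak was similar at kept and lost sites ranked in control replicate 1. The gap to the next peak of control replicate 1 had a median of 4184.5 bp at kept sites (quartiles 1314 and 9655) and 4005 bp at lost sites (1217.5 and 9674.5), and 3885.5 bp over all control peaks. No other control peak lay within 10 kb, centre to centre, of 74 kept sites (33.6%, 27.4% to 40.3%) and of 90 lost sites (34.2%, 28.5% to 40.3%). The share over all control peaks was 29.9%. In the control replicate 2 list the median gaps were 7724 and 7357 bp, and in the PH control list 4313 and 4844 bp. These differences were small beside the quartile ranges and did not keep one direction between lists. Without control replicate 1, with sites ranked in control replicate 2, the medians were 7971 bp at kept and 10704 bp at lost sites, with overlapping 95% intervals.

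Kept and lost sites could lie directly side by side. On 3L the kept site at 4551063 to 4555227 and the lost site at 4540338 to 4550956 were 106 bp apart. Their control replicate 2 scores were 286 and 311 and their PH control scores 3100 and 1416. The kept one had 207 in mitotic replicate 1 and 77.2 in PH mitotic, and the lost one had no mitotic peak at all. On 2L the kept site at 869308 to 872524 and the lost one at 864840 to 869062 were 245 bp apart, with 458 and 129 in control replicate 2. On 2R the pair at 6449869 to 6461026 and 6443764 to 6448910 was 958 bp apart, with 622 and 236. In the pairs on 3R and X, 1120 and 1275 bp apart, control replicate 2 gave 372 against 229 and 167 against 166. The kept member was clearly higher in control replicate 2 in 3 of these 5 pairs, lower in the pair on 3L and nearly equal in the pair on X.

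The 5 main arms kept similar shares, and chromosome 4 kept none. On chromosome 2, 48 of 111 strongest sites were kept on the left arm (43.2%) and 52 of 102 on the right arm (51.0%). On chromosome 3 the left arm kept 45 of 97 (46.4%) and the right arm 63 of 131 (48.1%). The X chromosome kept 11 of 24 (45.8%), and the intervals of all 5 overlapped. With the strongest peaks taken from control replicate 2, the X chromosome kept 6 of 8 (75%). On chromosome 4, a small and largely heterochromatic chromosome, 0 of 13 strongest sites were kept, which allows a share of up to 23.1% by the rule of 3 counts (24.7% by the exact interval). The 9 of them with a control replicate 2 peak had a median score of 185 there, that of the lost sites as a whole, and 4 had none. Few X peaks had reached the strongest 10%, 3.45% of those in the list against 9.91% to 12.3% on the large autosomal arms. PH mitotic supported 18 kept sites on 2L, 13 on 2R, 12 on 3L, 27 on 3R and 5 on X.

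Along the large autosomal arms, few sites were kept in the windows of 5 Mb on the centromere side. These windows were singled out after the shares of all windows had been seen, so their values are a description. In the dm3 numbering they are the high end of 2L and 3L and the low end of 2R and 3R. On chromosome 2 they kept 1 of 11 sites (2L) and 4 of 22 (2R). On chromosome 3 they kept 1 of 8 (3L) and 7 of 23 (3R), which gave 13 of 64 (20.3%, 11.3% to 32.2%). The rest of these arms kept 195 of 377 (51.7%, 46.6% to 56.9%). The median control replicate 2 score was 196 in the windows and 226 elsewhere, and 6 of the 64 sites had no peak there against 9 of the 377. Among sites above the median control replicate 2 score of 222, 9 of 26 were kept in the windows (34.6%) and 123 of 190 elsewhere (64.7%). At or below it, 4 of 32 (12.5%) and 71 of 178 (39.9%) were kept. The share was smaller in the windows in both score classes, but the windows had been picked for a low share. The part of the control score was not tested. Of the 13 sites kept there, 5 had a PH mitotic peak. Low shares were also present elsewhere on these arms, with 1 of 7 kept at the far end of 2R (20 to 25 Mb) and 6 of 22 on 3L between 5 and 10 Mb. Read mapping near centromeres was not analysed here.

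The nearest strongest neighbour was more often kept for kept sites than for lost sites, but not under all alternatives. It was kept for 116 of 219 kept sites (53.0%, 46.1% to 59.7%) and for 99 of 261 lost sites (37.9%, 32.0% to 44.1%). Of the 483, 45.5% were kept. The median gap to that neighbour was 59259 bp at kept sites. With the gap within 10 kb, the shares were 44.4% (25.5% to 64.7%) and 31.1% (18.2% to 46.6%). Within 50 kb they were 46.9% (36.8% to 57.3%) and 39.4% (31.0% to 48.3%). The intervals of kept and lost sites overlapped at both limits. Sites nearest to each other count in both directions. Kept status is what the rule used, so this is a description of arrangement. The longest run of consecutive kept sites had 9 members, on 2R between 14298355 and 17594548. The longest runs of lost sites had 13 on chromosome 4 and 12 each on 2R between 357857 and 2761270 and on 3R between 3930405 and 6091964. With the centromere-side windows, chromosome 4 and the scaffolds left out, the shares were 53.4% for kept sites and 47.2% (40.01% to 54.4%) for lost sites, with overlapping intervals. Among the 184 peaks at or over the ceiling alone the order turned, with a kept neighbour for 55.8% of kept and 60.8% of lost sites. Without mitotic replicate 1, when mitotic replicate 2 decided, 2 of 26 kept sites (7.69%) and 5.07% of lost sites had a kept neighbour.

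Only 4 of the 263 lost sites (1.52%) had a peak in mitotic replicate 2 or PH mitotic, against 3.29% of all control peaks. chr3L:9434653-9436771 had 97.5 in mitotic replicate 2 and none in PH mitotic, with 472 in control replicate 2. The others, chr2L:10230081-10233253, chr2L:16349310-16353641 and chr3R:4877341-4884358, had 50.8, 60.1 and 57.1 in PH mitotic and none in mitotic replicate 2. All 4 stood at 3100 in control replicate 1 and in PH control. The PH mitotic scores of these 3 were below the lower quartile of 69.5 at kept sites.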

How the data were processed

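The deposited lists give chromosome, start, end and a score for each peak. The authors aligned short reads to dm3, kept uniquely mapping ones, called peaks in each sample separately with MACS, filtered the PSC and PH control lists by false discovery rate, used a looser cutoff for PH mitotic and removed unplaced sequence. Bowtie 1.1.2, MACS 1.0.1 and dm3 are those of the submitters' processing notes. The score is the authors' deposited value. Inputs were not analysed here, and depth per sample is unknown, so intervals cover counting only.

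Members and lists were chosen with earlier results of these data known. Overlaps of at least 1 bp were counted in Python 3.11.15 (numpy 2.4.6, pandas 2.3.3, scipy 1.17.1, matplotlib 3.10.9), tested on simulated data and checked with bedtools 2.31.1 (30 of 30 pairs of lists with the same count). Shares have exact binomial (Clopper-Pearson) 95% intervals, and no p-value was computed over sites. The intervals treat sites as independent, which was not tested. Starts are 1-based. A site with several peaks in a list took the highest score and the greatest length. Distance between peaks is the gap between their edges unless stated otherwise.

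Named sites were the 10 members highest in mitotic replicate 1, up to 15 in all mitotic lists, the 5 highest kept and lost by control score, the 5 closest pairs, members with several mitotic peaks or none in a control list. The text names some of these. The longest sites and the lost sites with mitotic support were named after their values were seen. The alternatives were other overlap limits, a score minimum of 100, other ranking limits, each replicate left out and the main arms only.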

Additional observations from a re-analysis of the deposited data

How the results depend on the processing

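No paired analysis was possible because no result comes from a test over samples. Values were compared with the 95% interval of the value as reported. A required overlap of 50% of the shorter of both peaks, a tolerance of 500 bp, the 5 main arms alone and sites up to 10 kb left all of the shares and medians within it. A score minimum of 100 throughout gave a kept share of 32.9%, PH mitotic support of 22.0% at kept and 0% at lost sites, control replicate 2 presence of 82.1% and score of 221 at lost sites, and a kept neighbour for 40.9% of kept sites. The top 5% gave a kept share of 54.4%, PH control presence of 100% at lost sites, PH control lengths of 3439 and 4204 bp at kept and lost sites, a control replicate 2 score of 207 at lost sites and an offset of 443 bp. The top 20% gave 38.4%, lengths of 2553 and 2824 bp, control replicate 2 scores of 228 and 157, an offset of 219.5 bp and 45.6% with a kept neighbour. Alternatives chosen after seeing the data were the ceiling peaks alone, sites up to 10 kb and leaving out the centromere-side windows, chromosome 4 and scaffolds. The ceiling peaks gave 56.5%, PH mitotic support of 41.3% and 3.75%, control replicate 2 and PH control presence of 95% and 100% at lost sites, lengths of 3674 and 4366.5 bp, control replicate 2 scores of 310.0 and 207 and an offset of 484.5 bp. Leaving out the centromere-side windows gave 51.4%.

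With control replicate 1 or mitotic replicate 1 left out (control replicate 2 ranked, or mitotic replicate 2 used for keeping), the kept share ran from 5.38% to 49.2%, the lower without mitotic replicate 1, whose stand-in holds 60 peaks. PH mitotic support ran from 35.4% to 84.6% at kept and from 1.20% to 12.3% at lost sites. Mitotic replicate 2 support without control replicate 1 was 19.9% and 0.602%. Control replicate 2 presence without mitotic replicate 1 was 100% and 94.3%, with scores of 396 and 218. PH control presence was 100% at kept and from 99.8% to 100% at lost sites. The gap to the next peak ran from 3834.5 to 7971 bp and from 4031 to 10704 bp, PH control length from 2182 to 2566 bp and from 2183 to 3249 bp, the offset from 119.5 to 200 bp, and the share with a kept neighbour from 7.69% to 52.5%. Kept sites had the larger support in both mitotic lists and the higher control replicate 2 score under all settings that gave a value. Support in a list cannot be given where that list ranks or keeps the sites.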

Other observations

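Support in the 2 mitotic lists that did not choose the sites was also counted by control replicate 1 score. PH mitotic supported 41.3% of kept sites at or over the ceiling (31.8% to 51.4%), 29.6% of those with scores of 2386 to 3082 and 24.4% of those with 2041 to 2382 (12.9% to 39.5%). Mitotic replicate 2 supported 10.6% (5.40% to 18.1%), 8.45% and 17.8% (8.00% to 32.1%) of the same sites. The intervals overlapped within each list, and a difference between the lists was not tested. By length of the PH control peak, mitotic replicate 2 supported 13 of the 64 kept sites in the shortest group, 1621 to 2423 bp (20.3%, 11.3% to 32.2%), and 4 of the 50 in the longest, from 4548 bp upward (8.00%, 2.22% to 19.2%). PH mitotic supported 31.2% and 30% of them.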
